A study of Sus scrofa with 2 samples.

Results

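The genes described here encode mitochondrial ribosomal proteins (MRPs), measured as mRNA in the longissimus dorsi muscle (LM) of Yorkshire and Shaziling pigs. The members were taken from the deposited table of assembled transcripts (unigenes). A unigene was a member when its protein match in the nr database carried the RefSeq accession of a pig gene whose symbol starts with MRPL or MRPS followed by a number, and the unigene with the highest mean RPKM (reads divided by the length of the unigene and the size of the library) represented its gene. The pig reference list holds 77 such genes, and 38 of them were found by this rule on 39 unigenes, out of 4484 gene symbols found in the same way. The other 39 genes of the family were not analysed here.

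Mitochondria keep ribosomes of their own, which translate the few mRNAs copied from mitochondrial DNA into core subunits of the respiratory chain and of ATP synthase. The proteins of these ribosomes are encoded in the nucleus, made in the cytosol and imported. The small subunit binds and decodes the mRNA, and the large subunit joins the amino acids, and in both of them proteins inherited from the bacterial ancestor sit beside proteins that exist only in mitochondrial ribosomes. Skeletal muscle is a tissue with a large demand for respiration, and its capacity to make the mitochondrially encoded subunits depends on these particles.

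The libraries came from LM of male pigs of 25 days of age, 3 full-sibs of each breed, without any treatment. Yorkshire is a fast-growing lean breed, and Shaziling is an indigenous Chinese breed. The breeds follow the sample titles and the column names, although another descriptive field of the sample records attaches the class of the other breed to each sample. Each breed has 1 column of reads and 1 column of RPKM values that name 3 animals, so there was 1 library per breed, no spread between pigs could be computed, no p-value is given, and breed cannot be told apart from litter and library. Library totals behind the RPKM values were 33949238 reads for Yorkshire and 28305925 for Shaziling, of which the 38 genes received 15753 and 16414 reads. Of 10 markers of muscle fibres, 3 were found by their pig accessions (MYLPF, DES and MYOZ1), with a summed RPKM of 1411 in Yorkshire and 5229.5 in Shaziling. The 3 fibroblast markers found of 5 summed to 617 and 556, the 3 endothelial markers of 4 to 35.2 and 58.5, the 2 adipocyte markers of 5 to 27.5 and 52.1, and the 2 erythroid markers of 3 to 18.9 and 212, while none of the 4 immune markers was found by this route. In bulk muscle, fewer cells of a type and less RNA per cell cannot be told apart, and the part of these cell types in the values below was not tested.

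All 38 genes were transcribed in both libraries, at RPKM values that were never under 1, so none was lost to the filter on low values. The fewest reads of a member were 28 in Yorkshire and 91 in Shaziling, and the median over both libraries together was 755.5 reads per gene. Levels were moderate. The median RPKM of the family was 9.42 in Yorkshire and 14.2 in Shaziling, against 2.78 and 4.33 over the 4030 gene symbols kept by the filter on low values (RPKM of at least 1 in either library). Because RPKM is relative to the unigene length, which ran from 346 to 2826 bp among the members, levels of different genes can be set beside each other, within the limits of an assembly in which a gene can be represented by a fragment.

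**Figure D1:**
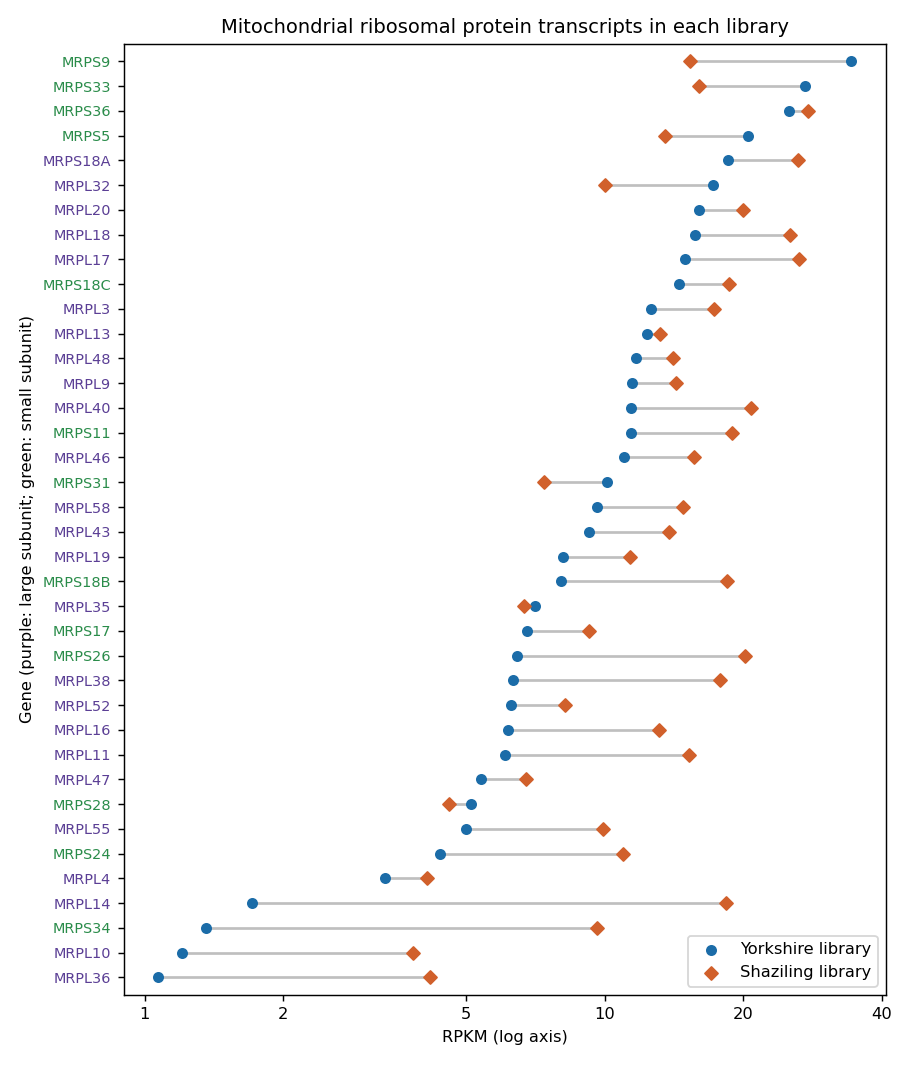
RPKM of the 38 genes in the Yorkshire library (circles) and the Shaziling library (diamonds) on a log axis, ordered by the Yorkshire level, with gene names in purple for the large subunit and green for the small subunit. The Yorkshire values run from 1.07 to 34.3 and the Shaziling values from 3.83 to 27.7, and the widest gaps belong to MRPL14 and MRPS34 near the foot of the Yorkshire order.

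The family was more even in Shaziling than in Yorkshire at its extremes. In Yorkshire the RPKM ran from 1.07 for MRPL36 to 34.3 for MRPS9, a range of 32.1-fold, and in Shaziling it ran from 3.83 for MRPL10 to 27.7 for MRPS36, a range of 7.22-fold. The middle part of the family differed less, with a ratio of the upper to the lower quartile of 2.30 in Yorkshire and 1.91 in Shaziling. Over all gene symbols this ratio was 5.74 and 4.61. Over the 2215 gene symbols whose mean RPKM lay between the lowest and highest of the members (2.52 to 26.4), it was 2.90 and 2.64. The full range of these 2215 symbols was 138-fold in Yorkshire and 46.4-fold in Shaziling, so it was narrower in Shaziling there too. These ranges are taken within a library and therefore do not depend on the scaling between the libraries.

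The order of the genes was also different. The 5 highest genes in Yorkshire were MRPS9, MRPS33, MRPS36, MRPS5 and MRPS18A, and they held 31.1% of the summed RPKM of the family. In Shaziling the 5 highest were MRPS36, MRPL17, MRPS18A, MRPL18 and MRPL40, with 23.3% of the sum. MRPS36 and MRPS18A were the 2 genes in both sets. Across the 38 genes the levels of the libraries had a Spearman's rho of 0.61, and across the 4030 gene symbols a rho of 0.81. Both are descriptions over genes of the same pair of libraries, and the second spans a much wider range of levels.

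The symbols of the family do not give the subunit in every case. MRPS18A lies in the large subunit of the mammalian particle, so 25 of the 38 genes were counted as large and 13 as small subunit genes. MRPS36 is counted with the small subunit by its symbol, although its product is now known as a component of the 2-oxoglutarate dehydrogenase complex (also called KGD4) rather than of the ribosome. The median RPKM of the large subunit genes was 9.25 in Yorkshire and 14.1 in Shaziling, and that of the small subunit genes was 10.1 and 15.3. The small subunit median was thus 1.096 times the large subunit median in Yorkshire and 1.09 times in Shaziling. Without MRPS36 it was 0.983 times and 1.03 times, and without MRPS9 0.983 times and 1.05 times, so the order of the medians in Yorkshire rested on either of these genes.

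By summed RPKM the balance of the subunits differed more between the libraries. The sums run over unequal numbers of genes, so a smaller sum does not by itself mean a lower level per gene. The 25 large subunit genes summed to 229 in Yorkshire and 351 in Shaziling, and the 13 small subunit genes to 175 and 190.5. The small subunit share of the family sum was 43.3% in Yorkshire and 35.2% in Shaziling. Without MRPS36 the shares were 39.6% and 31.7%, and without MRPS9, the most abundant gene of the Yorkshire library, they were 38.1% and 33.3%. The abundant small subunit genes MRPS9, MRPS33 and MRPS5 had lower RPKM values in Shaziling, and several small subunit genes of low level had higher ones. The balance of the sums thus differed between the libraries more than that of the medians.

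With the RPKM values as deposited, the ratio of Shaziling to Yorkshire had a median of 1.41 over the 38 genes, with quartiles of 1.21 and 2.09. It was above 1 for 31 genes (81.6%), and 75.6% of the 4030 gene symbols were above 1. A ratio of 2 or more in favor of Shaziling was found for 10 genes (26.3%), with a background of 39.1% over all gene symbols and of 32.3% over those in the range of levels of the members. In the other direction, 1 gene (2.63%) was at least 2 times higher in Yorkshire, with backgrounds of 4.04% and 2.89%. In that range of levels, 73.6% of the gene symbols were above 1. The median over all gene symbols was 1.60 and that over the symbols in the same range of levels 1.47. An excess of genes higher in Shaziling was thus present in the table as a whole. The family lay slightly below it by its median and by its share past a fold of 2, and slightly above it by its share above 1. The symbols in the same range of levels had lower median RPKM values (4.47 and 6.61) than the family (9.42 and 14.2). The 640 gene symbols with an RPKM of at least 10 in each library had higher ones (21.8 and 29.9). Their median ratio was 1.26, below that of the family, and 132 of them were past a fold of 2 in favor of Shaziling.

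The reads of each gene were also set against the library totals by an exact binomial test (two-sided), whose result concerns these libraries rather than the breeds. At a false discovery rate of 0.05 over the 65535 unigenes, the reads of 30 of the 38 genes differed, 25 with a higher level in Shaziling (65.8%) and 5 in Yorkshire (13.2%). Over the gene symbols these shares were 60.2% and 13.7%. The direction of these calls turned with the scaling of the libraries. With totals that exclude a pair of mitochondrial unigenes, 10 genes were called higher in Shaziling (background 32.5%) and 16 in Yorkshire (background 37.5%). After centring the counts were 16 (46.7%) and 8 (23.8%), and with the same RPKM sum, TMM or DESeq2 size factors they were 14 (42.4%, 42.2% and 42.4%) and 9 (27.1%, 27.3% and 27.1%). The intervals given below are exact 95% intervals of the ratio from the reads, cover counting error only, and say nothing of the spread between pigs.

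**Figure D2:**
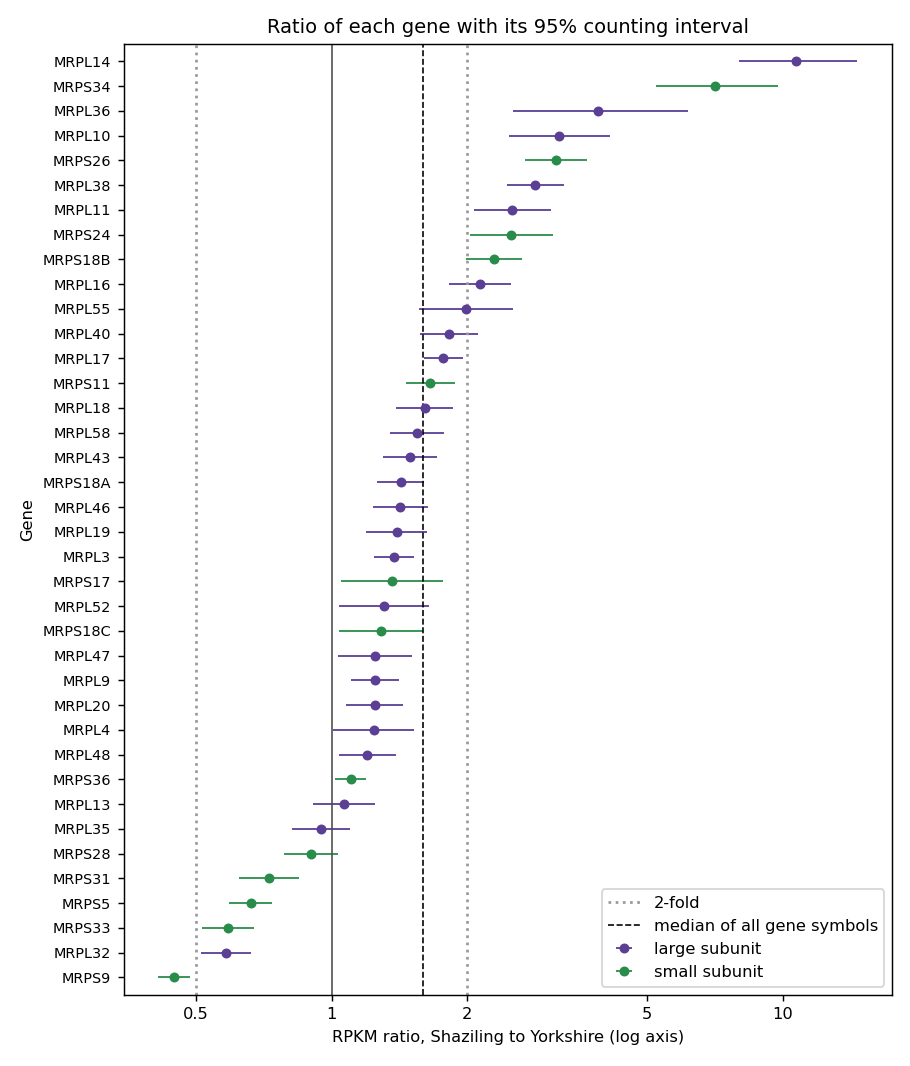
Ratio of the Shaziling to the Yorkshire RPKM for each gene on a log axis, with exact 95% counting intervals from the reads, in purple for the large and green for the small subunit, dotted lines at a fold of 2 and a dashed line at the median of all gene symbols (1.60). Most genes lie between 1 and 2, MRPL14 and MRPS34 stand far to the right, and 5 of the 7 genes below 1 belong to the small subunit.

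As deposited, ratios above 1 were more frequent among the large subunit genes. Of the 25 large subunit genes, 23 had a ratio above 1, 6 of them at 2 or more, and the median was 1.42. Of the 13 small subunit genes, 8 had a ratio above 1, 4 of them at 2 or more, and the median was 1.28. Over all gene symbols 75.6% had a ratio above 1 and 39.1% a ratio of 2 or more. In the range of levels of the members these shares were 73.6% and 32.3%. The quartiles were 1.25 and 1.98 for the large subunit and 0.727 and 2.29 for the small subunit, so the small subunit genes were spread over both directions while the large subunit genes were mostly on 1 side of the value of 1. Without the mitochondrial unigenes in the totals, 9 of 25 large and 5 of 13 small subunit genes were above 1 (background 48.1%). These shares were close, but a common factor only moves the point at which the genes are divided. The order of the medians stayed as it was. Under this scaling 5 genes were at least 2 times higher in Yorkshire (background 16.5%). Of them MRPS9, MRPS33, MRPS5 and MRPS31 were small subunit genes and MRPL32 was a large subunit gene. After centring, 17 of 25 large and 7 of 13 small subunit genes were above 1 (background 62.9%). With 1 library per breed and genes that are not replicates of each other, this difference between the subunits has no test.

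The largest ratios belonged to genes of low level in Yorkshire. The Yorkshire level is the denominator of the ratio, so the 2 are linked in part by construction. Their Spearman's rho was -0.62 across the 38 genes and -0.50 across the 4030 gene symbols. MRPL14 (contig_20105, 859 bp), a protein of the face of the large subunit that meets the small subunit, was covered by 50 Yorkshire reads (RPKM 1.71) and 447 Shaziling reads (RPKM 18.4). The ratio of 10.7 (95% interval 7.99 to 14.7) was the highest of the family, and the gene ranked 35 of 38 by level in Yorkshire and 11 in Shaziling. MRPS34 (contig_7266, 1085 bp), a mitochondria-specific protein needed for a stable small subunit, was covered by 50 reads (RPKM 1.36) and 295 reads (RPKM 9.61), a ratio of 7.08 (5.23 to 9.75). No other gene of the family reached a ratio of 4.

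A second set of genes was about 3 to 4 times higher in Shaziling. MRPL36 (contig_38233), a small protein of bacterial origin in the large subunit, had 28 reads (RPKM 1.07) in Yorkshire and 91 reads (RPKM 4.17) in Shaziling, with a ratio of 3.90 and a wide interval of 2.53 to 6.19. MRPL10 (First_Contig1962, 2082 bp), which anchors the stalk that recruits translation factors, had RPKM values of 1.203 and 3.83 and a ratio of 3.19 (2.47 to 4.14), and it ranked last by level in Shaziling. MRPS26 (contig_17096), a mitochondria-specific protein of the small subunit, had RPKM values of 6.43 and 20.2 and a ratio of 3.14 (2.69 to 3.68). MRPL38 (contig_17120), a mitochondria-specific protein of the central protuberance of the large subunit, had RPKM values of 6.30 and 17.8 and a ratio of 2.83 (2.44 to 3.27).

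The other genes past a fold of 2 were 2 of each subunit. MRPL11 (contig_6272), at the base of the stalk, had RPKM values of 6.06 in Yorkshire and 15.2 in Shaziling and a ratio of 2.51 (2.07 to 3.06). MRPS24 (contig_6161), near the site where the mRNA enters the small subunit, had 4.39 and 10.97 and a ratio of 2.498 (2.02 to 3.10). MRPS18B (contig_1778) had 8.05 and 18.5 and a ratio of 2.29 (1.99 to 2.65). MRPL16 (contig_24940), next to the site where peptide bonds are formed, had 6.17 and 13.1 and a ratio of 2.13 (1.82 to 2.496). The intervals of MRPS18B and MRPL16 reached below 2, and MRPL55, just outside the threshold with a ratio of 1.98 (1.56 to 2.53), could not be told apart from them by its reads.

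These 10 genes lay in the lower and middle part of the family by mean RPKM. Of the 13 genes with the lowest mean RPKM 5 were among them, of the 12 in the middle 5, and of the 13 with the highest mean RPKM (13.6 to 26.4) none. Across the 38 genes the ratio and the mean RPKM had a Spearman's rho of -0.29, and across the 4030 gene symbols a rho of -0.20. The rho of the ratio with the unigene length was -0.28 over the members and -0.16 over the gene symbols. These values describe genes that share both libraries and are no test.

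With the values as deposited, 5 genes were higher in the Yorkshire library by their reads, 4 of them in the small subunit. MRPS9 (contig_2127, 1952 bp), a protein of bacterial origin in the head of the small subunit, was covered by 2274 Yorkshire reads (RPKM 34.3, the highest of the family) and by 848 Shaziling reads (RPKM 15.3). Its ratio was 0.447 (0.413 to 0.484), which is 2.24 times higher in Yorkshire, and its rank by level was 1 in Yorkshire and 16 in Shaziling. It was the member past a fold of 2 in this direction.

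MRPL32 was the exception among the large subunit genes. This protein of bacterial origin, which is trimmed by a protease of the inner membrane before it joins the ribosome, had RPKM values of 17.2 for Yorkshire and 10.01 for Shaziling (contig_6071) and a ratio of 0.584 (0.513 to 0.663). MRPS33 (contig_3609), a mitochondria-specific protein of the head, had 27.2 and 16.02 and a ratio of 0.589 (0.516 to 0.672). MRPS5 (contig_2496) of the body of the small subunit had 20.4 and 13.5 and a ratio of 0.661 (0.593 to 0.737). MRPS31 (contig_2999), another mitochondria-specific protein of the head, had 10.1 and 7.37 and a ratio of 0.727 (0.622 to 0.848). The 5 intervals lay below 1. The remaining genes with a ratio below 1, MRPS28 (0.898, 0.782 to 1.03) and MRPL35 (0.947, 0.817 to 1.097), had intervals that included 1.

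The abundant genes of the family were mostly close to the median of the table or under it. MRPS36 (contig_1056) had the most reads over both libraries after MRPS9, with 1312 in Yorkshire and 1205 in Shaziling, RPKM values of 25.1 and 27.7 and a ratio of 1.102 (1.02 to 1.19). MRPL17 (contig_5148), near the exit of the peptide tunnel, had RPKM values of 14.9 and 26.4 and a ratio of 1.77 (1.60 to 1.95). MRPL40 (contig_6594) of the central protuberance had 11.4 and 20.7 and a ratio of 1.82 (1.57 to 2.11). Both ratios were above the median of the gene symbols. MRPL20 (contig_15885), an early binder of the ribosomal RNA in bacteria, had 16.01 and 19.9 and a ratio of 1.25 (1.08 to 1.44). MRPL3 (contig_6908), which reaches into the core of the large subunit, had 12.6 and 17.3 and a ratio of 1.37 (1.24 to 1.52).

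MRPL18, a protein of the central protuberance, was the member with more than 1 unigene. The representative, contig_3272 (613 bp), was covered by 327 Yorkshire reads (RPKM 15.7) and 438 Shaziling reads (RPKM 25.2), a ratio of 1.61 (1.39 to 1.86). First_Contig898 (433 bp), matched to another accession of the same gene, had 26 and 145 reads, RPKM values of 1.77 and 11.8, and a ratio of 6.69 (4.38 to 10.6). The intervals of the unigenes did not overlap, so the ratio of a gene depended here on the unigene that stood for it.

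The MRPS18 paralogs illustrate the spread within a family of related proteins. MRPS18A (contig_1739), the paralog of the large subunit, had RPKM values of 18.5 and 26.3 and a ratio of 1.42 (1.26 to 1.60). MRPS18C (contig_6339, 346 bp), the paralog that takes the place of the bacterial protein in the small subunit, had 14.5 and 18.6 and a ratio of 1.28 (1.04 to 1.59). MRPS18B, described above, had the lowest level of them in Yorkshire and the highest ratio, and its interval started above the upper bounds of the others. MRPS11 and MRPL46 are neighbouring genes in the pig assembly Sscrofa11.1, the only adjacent pair of this family there. MRPS11 (contig_13792) had RPKM values of 11.4 and 18.9 and a ratio of 1.66 (1.46 to 1.88), and MRPL46 (contig_6374) had 10.99 and 15.6 and a ratio of 1.42 (1.23 to 1.63), so the neighbours had similar levels and overlapping intervals.

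By the fixed list used here, proteins of bacterial origin and proteins specific to mitochondria had similar medians. The list placed MRPL55 (ratio 1.98) with the bacterial homologs and MRPS18A and MRPS18B with the specific genes. These placements are open to doubt, and other placements were not tried. The 24 genes listed with a bacterial homolog had a median ratio of 1.37. Of them 19 were above 1, 6 at least 2 times higher in Shaziling and 1 in Yorkshire. The 14 genes listed as specific to mitochondria had a median of 1.46. Of them 12 were above 1, 4 at least 2 times higher in Shaziling and none in Yorkshire. The backgrounds over all gene symbols were 75.6%, 39.1% and 4.04%. In the small subunit the 7 genes with a bacterial homolog had a median of 1.28 and the 6 specific ones a median of 1.70. The most uniform of these sets was formed by the 8 large subunit genes listed as mitochondria-specific, which leave out MRPL55. Their ratios lay between 1.20 and 2.83. The ratio of the upper to the lower quartile was 1.16 in this set, against 1.73 in the whole family and 2.83 over all gene symbols.

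The direction of the family depended on how the libraries were scaled. A pair of mitochondrial unigenes (contig_3 and contig_45), which hold transcripts of the mitochondrial genome, had 46.4% of the Yorkshire library total and 11.8% of the Shaziling total. Their RPKM was 3.90 and 4.40 times higher in Yorkshire. The part of these reads that comes from mRNAs translated by these ribosomes was not measured. RPKM values of all other genes are relative to totals that include these reads. When the unigenes were left out of both totals, the ratio of each gene was multiplied by 0.608, the median of the family became 0.855 and that of all gene symbols 0.970. Under this scaling 14 of the 38 genes were above 1 (background 48.1%), 3 were at least 2 times higher in Shaziling (background 21.1%) and 5 at least 2 times higher in Yorkshire (background 16.5%). When the ratios were centred on the 640 gene symbols whose RPKM was at least 10 in each library, the median of the family was 1.11, 24 genes were above 1 (background 62.9%), 6 were at least 2 times higher in Shaziling (background 29.3%) and 3 in Yorkshire (background 7.99%). With the same RPKM sum in both libraries, with TMM factors and with DESeq2 size factors, 22 genes were above 1 (backgrounds 59.1%, 58.8% and 59.1%), 6 were past the fold in favor of Shaziling (27.2%, 26.9% and 27.2%) and 4 in favor of Yorkshire (9.35%, 9.5% and 9.35%).

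**Figure D3:**
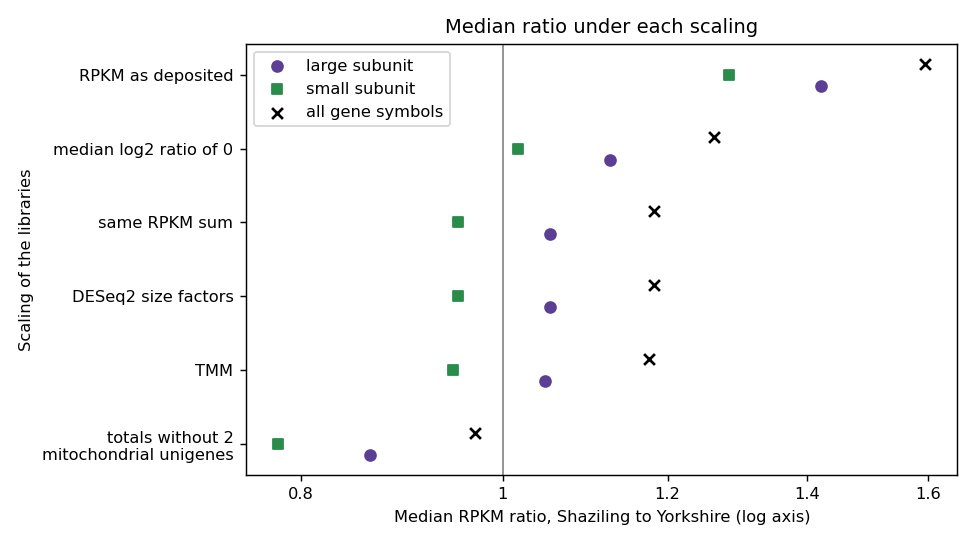
Median ratio of Shaziling to Yorkshire for the 25 large subunit genes (circles), the 13 small subunit genes (squares) and the 4030 gene symbols (crosses) under 6 scalings of the libraries, on a log axis. The small subunit lies left of the large subunit and both lie left of all gene symbols in every row, an order that a common factor cannot change, and without the mitochondrial unigenes all 3 medians are below 1.

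Relative to the rest of the table the position of the family was fixed, since a scaling multiplies all ratios by the same factor. The difference between its median log2 ratio and that of all gene symbols was -0.18 under each of the 6 scalings. MRPL14, MRPS34 and MRPL36 were above a ratio of 2 under all of them, with 6.52, 4.30 and 2.37 without the mitochondrial unigenes, where MRPS9, MRPL32, MRPS33, MRPS5 and MRPS31 were at 0.272, 0.355, 0.358, 0.402 and 0.442. The 10 genes past a fold of 2 in favor of Shaziling could not fall below 1, since the smallest factor of the scalings was 0.608. For the 7 genes below 1 no change was possible either, since every other scaling lowered the ratios. Only among the 21 genes between a ratio of 1 and 2 could a direction change with the scaling.

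The genes that assemble and serve these ribosomes were described from lists of known factors. Of 5 ribosomal proteins with other symbols, 2 were found. CHCHD1 of the small subunit had RPKM values of 7.40 for Yorkshire and 12.01 for Shaziling and a ratio of 1.62 (1.32 to 1.99), and GADD45GIP1 of the large subunit had 4.77 and 5.32 and a ratio of 1.12 (0.851 to 1.46). Neither reached a fold of 2.

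Translation factors were lower relative to the ribosomal proteins. Of 16 factors 10 were found and 9 reached an RPKM of 1, and none of the 9 was past a fold of 2. Over all gene symbols 39.1% were past it in favor of Shaziling and 4.04% in favor of Yorkshire. The median ratio of the 9 factors was 0.860, and 5 of them were below 1. The release factors MTRF1 and MTRF1L had ratios of 0.618 (0.523 to 0.729) and 0.622 (0.490 to 0.786). TACO1, an activator of the translation of a cytochrome oxidase mRNA, had the highest ratio, 1.73 (1.502 to 1.99), followed by the ribosome recycling factor MRRF with 1.41 (1.096 to 1.80). With 1 library per breed, the gap between this median and that of the ribosomal proteins has no test.

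Assembly factors were closer to the ribosomal proteins. Of 26 factors 17 were found and 16 reached an RPKM of 1, with a median ratio of 1.405. A fold of 2 or more in favor of Shaziling was found for 5 of the 16, with a background of 39.1% over all gene symbols. None was past it in favor of Yorkshire (background 4.04%). TRUB2, a pseudouridine synthase, had 18 and 71 reads, RPKM values of 1.77 and 8.36, and a ratio of 4.73 (2.79 to 8.43). MRM2, which methylates the ribosomal RNA of the large subunit, had RPKM values of 1.72 and 6.09 and a ratio of 3.54 (2.76 to 4.58). The lowest ratios were those of the RNA helicase DHX30 (0.668, 0.440 to 1.002) and of the GTPase GTPBP10 (0.838, 0.731 to 0.959).

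Of 22 genes that charge mitochondrial tRNAs 8 were found and 7 reached an RPKM of 1, with a median ratio of 1.95. Of the 7, 3 were at least 2 times higher in Shaziling (background 39.1% over all gene symbols). The valyl-tRNA synthetase VARS2 had a ratio of 2.90 (2.30 to 3.69) and GATC, a subunit of the complex that makes glutaminyl-tRNA, a ratio of 1.95 (1.67 to 2.29), and both were higher in Shaziling. QRSL1, another subunit of that complex, had 44 and 25 reads and a ratio of 0.681 (0.400 to 1.14), and NARS2 had RPKM values of 7.355 and 7.358. The subunits GATC and QRSL1 thus had intervals that did not overlap. The unigene of QRSL1 was a short sequence of 204 bp, and that of GATC had 958 bp. As seen for MRPL18, the ratio of a gene can depend on the unigene that stands for it.

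Genes that copy mitochondrial DNA and its RNA were represented by 4 of 9. TFAM, which packages mitochondrial DNA and starts its transcription, had RPKM values of 8.25 and 9.96 and a ratio of 1.21 (1.11 to 1.32). The DNA polymerase POLG had a ratio of 2.49 (2.23 to 2.77), TEFM a ratio of 0.958 (0.728 to 1.26) and MTERF1 a ratio of 0.705 (0.580 to 0.854). Among 8 regulators of mitochondrial genes ESRRA alone was found, a nuclear receptor, with RPKM values of 3.99 and 18.4 and a ratio of 4.63 (4.11 to 5.21).

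**Figure D4:**
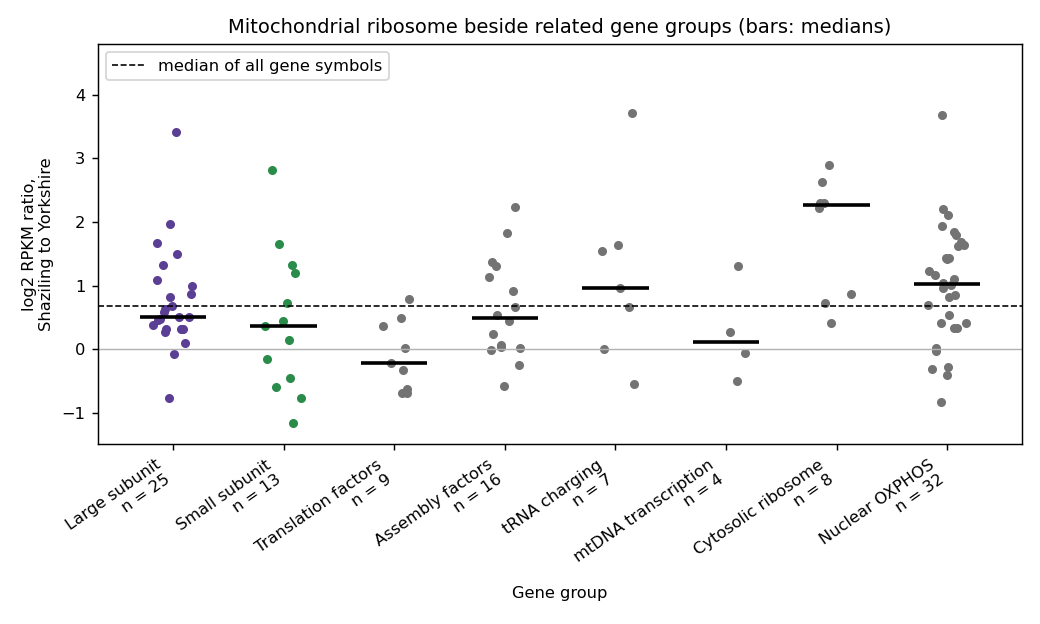
Log2 ratio of the Shaziling to the Yorkshire RPKM for the genes of each group kept by the filter on low values (points; horizontal bars are medians, the dashed line is the median of all gene symbols). The cytosolic ribosomal proteins (median ratio 4.79) lie above both subunits of the mitochondrial ribosome (1.42 and 1.28), and the translation factors (0.860) lie below them.

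The cytosolic ribosome and the respiratory chain were taken for comparison. Of 80 symbols of cytosolic ribosomal proteins 8 were found, with a median RPKM of 94.4 in Yorkshire and 219 in Shaziling. Of the 8, 5 were at least 2 times higher in Shaziling (background 39.1% over all gene symbols). The median ratio of the 8 was 4.79, with RPL14 at 1.32 (1.28 to 1.36), RPL6 at 1.65 (1.61 to 1.698) and RPLP0 at 6.16 (5.98 to 6.34). Among 69 symbols of nuclear subunits of oxidative phosphorylation 32 were found, with a median RPKM of 26.7 and 57.3. In this group 17 of the 32 genes passed a fold of 2 in favor of Shaziling (background 39.1%) and none in favor of Yorkshire (background 4.04%). The median ratio of the group was 2.03. The highest ratios were those of COX8H (12.8, 11.5 to 14.3) and NDUFB2 (4.60, 3.82 to 5.58), and the lowest those of SDHB (0.559, 0.537 to 0.581) and NDUFA5 (0.7501, 0.716 to 0.786). The median ratio of the MRPs (1.41) was thus lower than that of the nuclear subunits of oxidative phosphorylation and lower than that of the cytosolic ribosomal proteins. Few of the cytosolic genes were matched, and the gaps between these groups were not tested against any spread between pigs.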

How the data were processed

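LM RNA of the 3 pigs of each breed was sequenced by the authors as paired reads. Unigenes came from a joint assembly in CLC Genomics Workbench followed by CAP3, and their proteins from BlastX against nr. Whether the pigs were pooled before sequencing is not given in the sources used here. The submitters' processing notes name TopHat2 2.0.6 and a mouse build, which have no place in the methods of the study. The counts deposited for each unigene are whole, not normalized, and the program behind them is not given. For RPKM the authors used Qualimap, and each deposited value followed from the count, the deposited length in bp and 1 total per library. A tab is missing between a pair of column names, and the columns were read in the order in which the names stand. No column of values of a sample was left out (0 columns).

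The table analysed here lists 65535 unigenes, fewer than the assembly in the study, and the members found and all background shares refer to this list. The listed unigenes held 29537057 of the 33949238 reads in the Yorkshire total and 20575805 of the 28305925 in the Shaziling total. Reads outside the list were thus a larger part of the Shaziling total. The scalings by RPKM sum, TMM and DESeq2 size factors rest on the listed unigenes alone, and the effect of the unlisted reads was not tested. Accessions were matched to pig RefSeq symbols of Sscrofa11.1 without their version number, which gave 5698 of 65535 unigenes 1 of 4484 symbols. The assembly of the files is the authors' own, so no coordinates are given, and no sequences were used here. The planned search for promoter motifs was not run. Ratios are RPKM values of Shaziling over Yorkshire without a pseudocount, with exact 95% (Clopper-Pearson) intervals on the reads. With 1 library per breed, the edgeR and DESeq2 tests could not be fitted, and only their scaling factors were used. The exact binomial test (Benjamini-Hochberg adjustment) was run on simulated reads that carried counting error alone, the error the test assumes. The simulation had no spread between pigs and was not given the difference in mitochondrial reads between the libraries. It therefore says nothing of how these affect the calls. An RPKM of 1 in 1 or both libraries was required for group counts. The named genes were the 6 members of each subunit with the highest mean RPKM, the 6 with the highest and the 6 with the lowest ratio and all past a fold of 2 (50 or more reads), the MRPS18 family, the stalk genes, and for other lists the 2 highest and 2 lowest ratios (50 or more reads). MRPL55, MRPL35, MRPL46, MYLPF, DES and MYOZ1 were named outside this rule after their values were seen. A gene of the comparison lists that the rule names is not reported here. The members and lists were chosen with earlier results of these data known. Alternatives were 5 other scalings, other unigenes for a gene, pseudocounts, filters, folds and a false discovery rate of 0.01. Tests ran in scipy 1.17.1 under Python 3.11.15, and scaling factors came from edgeR 4.0.16 (TMM) and DESeq2 1.42.0.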

Additional observations from a re-analysis of the deposited data

How the results depend on the processing

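Scaling decided the side of 1 on which the medians lay. The median log2 ratio of the members, 0.49 with the RPKM values as deposited, was 0.16 after centring on the abundant gene symbols, 0.061 with the same RPKM sum, 0.060 with DESeq2 size factors, 0.053 with TMM and -0.23 once the mitochondrial unigenes were taken out of the totals. For the large subunit genes it was 0.51 as deposited, and 0.17, 0.075, 0.075, 0.067 and -0.21 in the same order. For the small subunit genes it was 0.36 as deposited, and 0.024, -0.071, -0.072, -0.079 and -0.36. The count of 11 genes past a fold of 2 was 20 with a fold of 1.5 and 5 with a fold of 3. By its own construction a lower fold takes in more genes. Under the scalings 8 to 10 genes were past a fold of 2, and the split of 10 in favor of Shaziling and 1 of Yorkshire became 6 and 3 after centring, 6 and 4 with the same RPKM sum, TMM or DESeq2 size factors, and 3 and 5 without the mitochondrial unigenes. The genes whose reads differed numbered 30 as deposited (25 higher in Shaziling, 5 in Yorkshire), 26 without the mitochondrial unigenes (10 and 16), 24 after centring (16 and 8), 23 under the other scalings (14 and 9) and 27 with a false discovery rate of 0.01 (22 and 5). The other unigene choices, pseudocounts of 1 and 0.5, filters and a minimum length of 300 bp left the direction of the 3 medians as it was and 9 to 11 genes past a fold of 2, and so did requiring the same version of an accession, which kept 32 of the 38 genes and was chosen after seeing the data, as were the small subunit without MRPS36 and the assignment of subunits by symbol alone. The 10 members past a fold of 2 in favor of Shaziling could not fall below 1 under scalings whose smallest factor was 0.608. A pseudocount added to both libraries cannot move a ratio across 1 either. MRPS9 could not cross 1 under scalings that all lower the ratios. The direction of these genes was therefore not put to a test by the scalings and pseudocounts. Genes with few reads, such as MRPL36, carry wide counting intervals. No paired analysis was possible because each breed has 1 library.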
